A study of Mus musculus with 3 samples.

Results

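Oxidative phosphorylation is the step of mitochondrial respiration in which electrons pass through complexes I to IV of the inner membrane and the proton gradient they build drives ATP synthase, complex V. Most of its subunits are encoded in the nucleus by short, widely expressed genes, and a few are replaced in male germ cells by testis forms. The genes described here are the nuclear protein-coding genes of the mouse annotation (GENCODE vM21) whose symbols begin with Nduf, Sdha to Sdhd, Uqcr, Cox4 to Cox8 or Atp5. The rule found 98 genes of 21951 protein-coding genes. They carry 97 symbols, because Atp5o names both the ATP synthase gene and an overlapping entry whose transcript is annotated as a readthrough. The rule also takes in assembly factors (the Ndufaf and Sdhaf genes, Cox7a2l and Atp5s), which help to build the complexes or join them and are given apart from the subunits below.

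The series sequenced small RNAs that came down with Tdrd1, a Tudor-domain protein of germ cells, or with Mili, the Piwi protein encoded by Piwil2. All 3 libraries came from testes of the C57BL/6 strain, 1 per group: Tdrd1 from adults, Mili from adult wild-type animals, and Mili from animals lacking Tdrd1, labelled with an age of 15 days after birth. The knockout group thus differed in age as well as in genotype, and the labels do not say how many animals each library came from. The authors deposited 1 list of 2219118 distinct sequences, each with 1 genomic position and with no library, strand or read number, so that no group can be set against another here and there are no replicates. Every value below counts distinct listed sequences over the pooled list, whatever the abundance of a sequence, and the depth behind a value is unknown. Among cells of the testis, fewer cells of a type and less RNA per cell cannot be told apart.

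Piwi proteins bind piRNAs, single-stranded RNAs of germ cells that often start with U. Many piRNAs of the testis are cut from long noncoding precursors, and others from ordinary mRNAs, mostly in the sense direction and often in the 3′ untranslated region. Fragments of translated mRNAs can also be bound, and length and first base describe a listed sequence without showing how it was made.

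Among the members with most sequences, the most used 5′ ends lay in coding sequence and started with U. The sequences below show what the list holds for these mRNAs. For 8 of the 9 members with most sense sequences, all but Atp5a1, the line gives the longest sequence of 24 to 30 nt at the 5′ end that was shared by most listed sequences, 5′ to 3′ as deposited with T for U, and the capital marks the first base.

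Cox4i1: Tgaatggaagacagttgtgggcatggccat

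Ndufb9: Tgaagaacataagaatgagaaggatatga

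Atp5b: Tggatgaactttctgaggaagataaattg

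Ndufv1: Taaggaccgagagatcatgcgtcatgaccc

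Uqcrh: Tagaggacgaacgaaagatgctcactggat

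Cox6a1: Ttccgaccggctatgaagatgagtaaagag

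Uqcrc2: Taaagcaggcagtagatatgaggactccaa

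Ndufb7: Tgaaggagtttgaacgtgagcggcgactg

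On the deposited build (NCBI mouse build 37, mm9, 1-based) the Cox4i1 sequence lies at chr8:123197173-123197202 on the plus strand, the Ndufv1 sequence at chr19:4009932-4009961 on the minus strand and the Cox6a1 sequence at chr5:115795848-115795877 on the minus strand. The 5′ end shown for Cox6a1 was shared by 10 sequences of 22 to 31 nt, the highest number at any end of the 8 genes. They differ only at the 3′ end, as the shortest of them shows.

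Cox6a1, 22 nt: Ttccgaccggctatgaagatga

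The 5′ ends shown for the other 7 genes were shared by 7 to 9 sequences each. In Cox4i1 and Uqcrh another 5′ end had as many sequences as the one shown.

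Nearly all of the genes gave small RNAs from the sense strand, and most gave many for their length. At least 1 sense sequence matched 95 of the 98 members (96.9%), where 71% of all protein-coding genes had one. At least 100 matched 27 members (27.6%), where the share over all protein-coding genes was 14.5%. Together 7908 distinct sense sequences matched them, 0.356% of the list. The members hold 0.211% of the exon length of protein-coding genes and 0.675% of its sense matches. The median member had 58 sense sequences and 39.7 per kb of merged exon (quartiles 15.4 and 69.0), beside medians of 10 sequences and 2.89 per kb over all protein-coding genes. Over the 15575 protein-coding genes with a sense sequence the medians were 31 and 7.53 per kb. Median merged exon length was 1578 bp in members and 3498 bp over all protein-coding genes. Among members the rank correlation (Spearman) of exon length with sequences per kb was -0.380. With each 5′ end counted once the median was 23.6 per kb in members and 2.62 over all protein-coding genes. Per 1000 windows of 26 nt inside 1 exon and found in no gene elsewhere, on 1 transcript per member, the members' median was 87.9. All sequences of that transcript were counted, whether or not they lay in such windows. Above the upper quartile of all protein-coding genes, 12.8 per kb, lay 79 members. These figures describe 1 pooled list. The number of distinct sequences depends on how much mRNA the cells held as well as on how it was cut, and these cannot be told apart.

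The numbers were spread over many members rather than resting on a few. Cox4i1, with most sequences, held 4.90% of all matches between sequences and members, the top 10 members 32.9% and the top 20 50.4%. None of the 7908 sequences lay in the 100 richest 20-kb windows of the list.

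Complex I takes electrons from NADH and is the largest of the complexes. Sense sequences matched all 44 of its genes, with a median of 35.6 per kb (4.65 to 296). Ndufb9, an accessory subunit, had the highest number, 305 (296 per kb, chr15:58765374-58771009). Ranges given with a gene run from the first to the last of its listed sequences inside exons, on mm9. Of these, 149 also matched Gm49356, an annotated gene that overlaps it. Ndufv1, the core subunit that binds NADH, followed with 282 sequences (107 per kb, chr19:4007517-4012694), and the accessory subunit gene Ndufb7 with 185 (40.9 per kb). By density Ndufa2 came next after Ndufb9 with 224 per kb (128 sequences), then the assembly factor gene Ndufaf1 with 121 (181 sequences). The 7 nuclear core subunits had a median of 40.2 per kb and the 29 accessory ones 40.9, so that these groups lay close together. The 8 assembly factors had a median of 21.4 per kb and ranged from 11.3 to 121, inside the range of the accessory subunits. By number and per kb the lowest member of complex I was Ndufs5, with 4 sequences (4.65 per kb). Another 9 sequences that match its transcripts were listed on another chromosome and lie outside these counts.

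Complex II, succinate dehydrogenase, had the lowest median of the 5 complexes, 14.9 per kb over 8 genes, of which 4 are assembly factors. Its members also had the longest merged exons (median 2870 bp, beside 1578 bp over all members). The flavoprotein gene Sdha had 119 sequences (28.8 per kb), the iron-sulfur subunit gene Sdhb 104 (46.4 per kb, chr4:140517152-140535081) and the membrane anchor gene Sdhd 51 (41.4 per kb). The other anchor gene, Sdhc, stood at 8.92 per kb. The 4 core subunits had a median of 35.1 per kb, beside 40.2 for those of complex I, 35.8 of complex III and 60.4 of complex V. The 13 core entries of complex V include the readthrough entry of Atp5o, which at 60.4 per kb is itself that median. The 4 assembly factors of complex II had a median of 8.56 per kb, and Sdhaf2 had most of their sequences, 82 (11.4 per kb).

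Complex III passes electrons from ubiquinol to cytochrome c. All 8 genes had sequences, with a median of 57.5 per kb. Uqcrh, the hinge protein that contacts cytochrome c1, had 282 sequences (228 per kb, chr4:115739584-115747637). The core protein genes Uqcrc2 and Uqcrc1 had 200 (78.4 per kb) and 148 (35.8 per kb), and the small subunit gene Uqcr10 had 43 (73.6 per kb). Uqcrfs1, which carries the Rieske iron-sulfur centre, was lowest with 20 (14.7 per kb).

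Complex IV, cytochrome c oxidase, spread most. Its 20 genes, which include Ndufa4, named for complex I but known as a subunit of complex IV, and its paralog Ndufa4l2, had a median of 34.1 per kb and ran from 0 to 318. Cox6a1 had the highest density of all members (318 per kb, 223 sequences) and Cox4i1 the highest number (389 sequences, 251 per kb, chr8:123192210-123198024). Cox7a2 had 119 sequences (126 per kb). Cox4i2 and Cox8b had no sense sequence, and Cox6a2 had 1.

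Complex V makes ATP. Its 18 entries had a median of 57.4 per kb, and none passed 91.2. The catalytic head was well covered, with 301 sequences for the beta subunit gene Atp5b (71.0 per kb, chr10:127520381-127527296) and 257 for the alpha subunit gene Atp5a1 (82.0 per kb, chr18:78012543-78021566). Atp5mpl, a small membrane subunit, had the highest density (91.2 per kb, 111 sequences), and Atp5o, part of the stalk, 150 sequences (76.1 per kb). Of these 150, 29 also matched other genes that overlap it, among them the readthrough entry, whose 32 sequences all matched another gene too. The genes for the c ring encode the same mature protein from 3 loci. Their counts differed widely: Atp5g3 had 137 sequences (62.8 per kb), Atp5g1 26 (5.29 per kb) and Atp5g2 0. For Atp5g3 351 coding windows of 26 nt lay inside 1 exon and in no gene elsewhere, for Atp5g1 20 and for Atp5g2 0. These window numbers come from 1 transcript per gene, and their part in the gap was not tested. Atp5l, the gene of the g subunit, had 1 sequence.

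**Figure D1:**
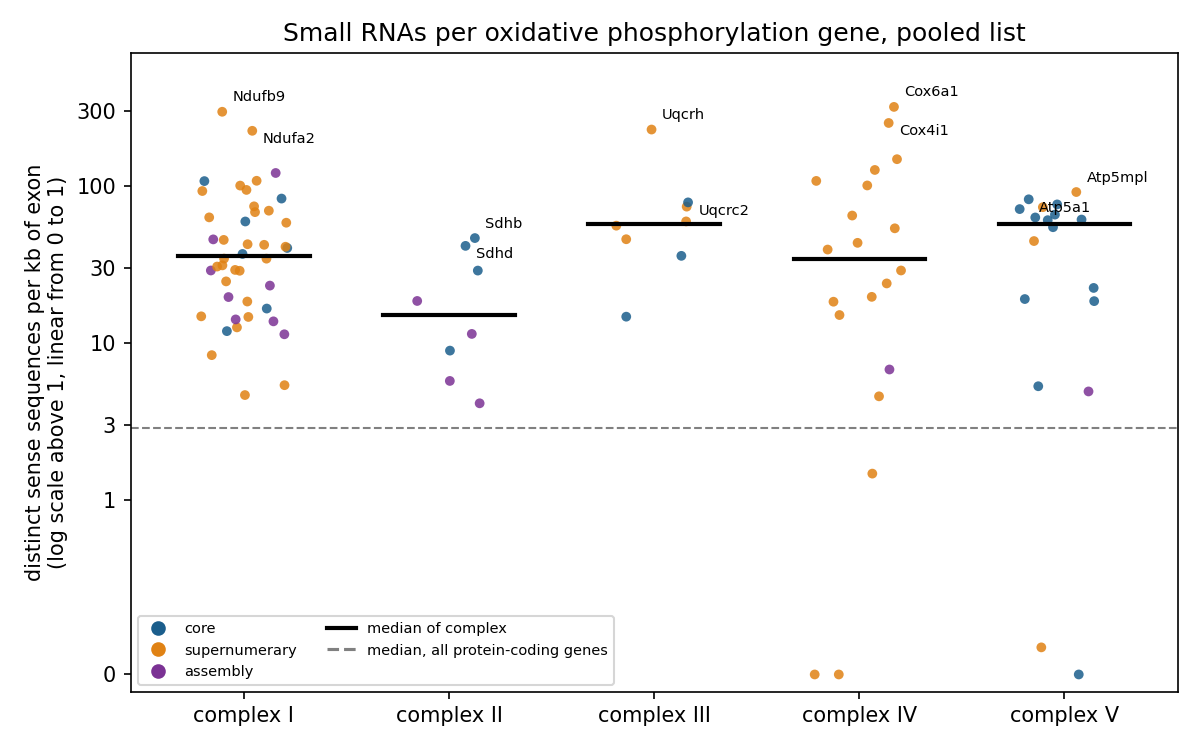
Number of distinct sense sequences for each kb of merged exon (vertical axis, logarithmic above 1) for each of the 98 genes, 1 point per gene, by complex; colour gives core subunits, accessory (supernumerary) subunits and assembly factors, black bars the median of each complex and the dashed line the median of all protein-coding genes, 2.89. Complexes III and V have the highest medians, 57.5 and 57.4, and complex IV holds both the highest gene, Cox6a1 at 318, and 2 of the 3 genes at 0.

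Of the complex IV forms typical of muscle, heart or lung, 2 had no sequence, Cox6a2 had 1 and Cox7a1 21, and the testis forms had 32 to 80. The partners are paralogs with separate loci, and their levels are compared per kb of merged exon within the pooled list, with no test. Cox6a2, the form of heart and skeletal muscle, stood at 1.47 per kb beside 318 for the widely expressed Cox6a1. Cox8b, also of heart and muscle, had 0 sequences in 360 bp of exon, and its partner Cox8a had 40 (64.6 per kb). Cox4i2, known from lung, had 0 beside the 389 of Cox4i1. Cox7a1, another muscle form, was not absent, with 21 sequences (39.3 per kb) beside 119 for Cox7a2 (126 per kb).

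Of the testis forms, Cox7b2 had 80 sequences (148 per kb), more than Cox7b with 29 (23.9 per kb), a ratio of 6.18. Cox8c stood at 100.4 per kb beside 64.6 for Cox8a, a ratio of 1.55. Cox6b2 went the other way, with 32 sequences (28.9 per kb) beside 76 for Cox6b1 (107 per kb). Cytochrome c itself, outside the name rule, had the highest ratio of a testis form to its partner among these 4 pairs, 66.3: the testis gene Cyct had 51 sequences (77.9 per kb) and the somatic gene Cycs 4 (1.18 per kb). For Cycs, 33.2% of the 26-nt windows of its mRNA also occur in another annotated gene elsewhere, and for Cyct 0%. The part of such windows in the gap was not tested.

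Coding sequence supplied most of the small RNAs of these mRNAs, unlike those of other genes. By the midpoint of each sequence, 71.5% (95% interval 70.5 to 72.5%) of 7798 sequences matching coding transcripts lay in coding sequence, where the length of the same transcripts gives 57.2%. The 3′ untranslated region held 20.5% (19.6 to 21.4%) beside 26.7% of length, and the 5′ untranslated region 8.004% (7.41 to 8.63%) beside 16.1%. Over the other protein-coding genes the order was turned around: coding sequence held 41.9% beside 45.7% of length, and the 3′ untranslated region 54.1% beside 47.5%. Intervals here and below are exact Clopper-Pearson and cover counting error only. Sequences of 1 mRNA overlap each other, and the intervals take no account of that.

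Other short housekeeping genes had the same lean. Sequences of 83 cytosolic ribosomal protein genes lay in coding sequence in 69.0% beside 60.9% of length, and those of 39 proteasome subunit genes in 77.0% beside 66.3%. A coding excess was thus not particular to respiratory genes. Their levels differed more: the median was 10.4 per kb for ribosomal protein genes and 23.4 for proteasome genes, beside 39.7 for the members. Ribosomal protein genes shared a median of 50.1% of their 26-nt windows with a gene elsewhere, proteasome genes 1.08% and members 1.80%, and the part of this in the levels was not tested.

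**Figure D2:**
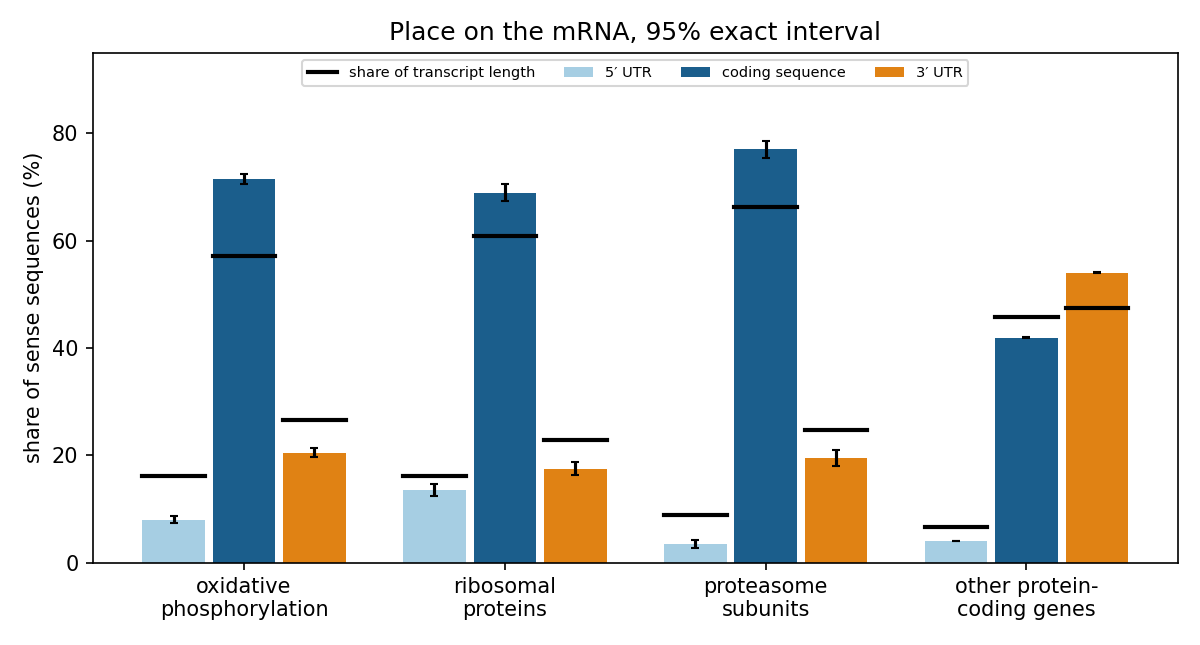
Share of sense sequences (vertical axis, percent, bars with 95% exact intervals) in the 5′ untranslated region, coding sequence and 3′ untranslated region for 4 sets of genes; black lines give the share of transcript length. In the 3 sets of short housekeeping genes the coding bar stands above its line (71.5% beside 57.2% for oxidative phosphorylation), and over other genes the 3′ untranslated bar does (54.1% beside 47.5%).

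The coding excess was seen gene by gene. It was counted on 1 transcript per member, the protein-coding transcript with the longest coding part. The sequences counted lie inside 1 exon. Length was measured in windows of 26 nt that lie inside 1 exon and occur in no gene elsewhere, and the sequences were not limited to these windows. On these transcripts 79.1% of 7489 sequences lay in coding sequence, which held 41.3% of the windows. That is 153 sequences per 1000 windows in coding sequence, 27.4 in 3′ and 31.5 in 5′ untranslated regions. Of 72 members with at least 20 sequences and at least 50 such windows in the 3′ untranslated region, 63 were denser in coding sequence and 9 in the 3′ untranslated region.

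In Cox4i1, the member with most sequences, 386 of 389 lay in coding sequence, which held 65.9% of its windows, with 1 before it and 2 after it. Ndufb9 had 291 of 294 there and Ndufv1 268 of 279. Uqcrh had 138 of 273 in coding sequence, which held 32.03% of its windows, 33 before it and 102 after it, and was also denser in coding sequence, with 1200 beside 626 per 1000 windows in the 3′ untranslated region. Among the 9 members that were denser in the 3′ untranslated region were Atp5g3, Atp5mpl and Sdhaf1, named here after their values were seen. In Atp5mpl 72 of 91 sequences lay there and 19 in coding sequence.

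**Figure D3:**
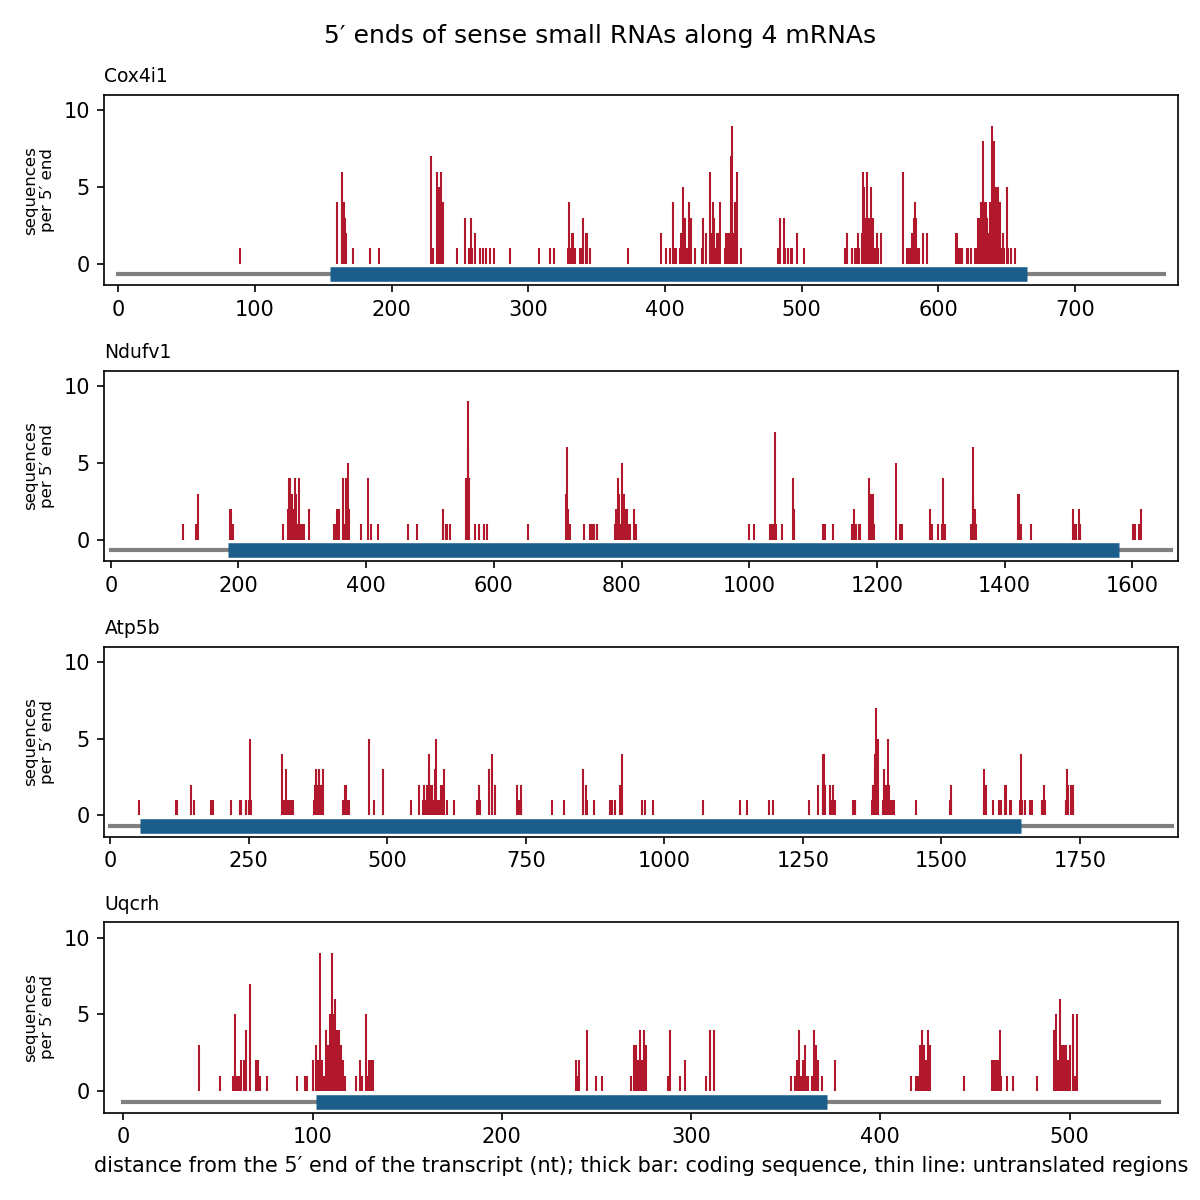
Number of listed sequences that share each 5′ end (vertical axis) against the distance of that end from the start of the transcript in nt (horizontal axis) for Cox4i1, Ndufv1, Atp5b and Uqcrh; thick bars are coding sequence and thin lines untranslated regions. Ends gather in groups along the coding sequence of Cox4i1, Ndufv1 and Atp5b, the most used with 9, 9 and 7 sequences, and those of Uqcrh also lie past its stop codon.

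The 5′ ends were many and none dominated. The 98 members had 4566 of them, with a median of 38.5 per member. In the 85 members with 20 or more sequences the most used end held a median of 6.90% of the gene's sequences and at most 22.2%, in Atp5h, a stalk subunit. Sequences covered a median of 38.7% of the bases of the mRNA and at most 78.4%, in Ndufb8, and 25 members had 50% or more covered.

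Lengths lay close to those of sequences from other mRNAs, and a U at the first base was less frequent. The mean length was 27.3 nt ± 1.67 (SD over 7908 sequences), beside 27.4 nt ± 1.60 for other protein-coding genes. Lengths of 24 to 28 nt, typical of Mili piRNAs, made up 75.4% (74.5 to 76.4%) and 75.9%. RNA of about 28 to 30 nt was cut from the gel, per the labels, and the most frequent listed length was 27 nt. Of the 7826 sequences of 24 to 32 nt, 55.5% (54.4 to 56.6%) started with U, fewer than the 67.7% (67.7 to 67.8%) of other protein-coding genes. A started 20.3% of them beside 15.2%, and G 12.4% beside 7.82%. U made up 16.5% at position 2.

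The U share was lower in coding sequence and in 3′ untranslated regions, each taken alone. Within coding sequence 53.4% (51.9 to 54.8%) of member sequences started with U, beside 59.8% for other genes, and within 3′ untranslated regions 60.2% (57.4 to 63.0%) beside 75.2%. In 5′ untranslated regions the shares were 63.6% (59.2 to 67.9%) and 63.2%. The mRNAs themselves held similar amounts of U, 22.7% of coding bases in the members and 22.4% in other genes, and 29.02% and 29.8% of 3′ untranslated bases. U shares of the complexes ran from 53.1% in complexes IV (50.4 to 55.8%) and 53.2% in III to 60.6% (55.9 to 65.1%) in II. Proteasome genes stood at 54.1% (52.2 to 55.9%) and ribosomal protein genes at 47.7% (46.1 to 49.3%), so that a share under that of all other genes was found in these sets too.

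Single genes differed widely. Among 77 members with at least 30 sequences of 24 to 32 nt, the U share had a median of 57.1% and 17 members (22.1%) were under 50%, beside a median of 65.9% and 11.1% of 7883 other genes. Ndufb7 was lowest with 30.6% (24.02 to 37.8%), and Ndufa6 highest with 87.9% (71.8 to 96.6%). Cox4i1, with most sequences, had 43.7%. The most used 5′ end of Ndufb7 that did not start with U was shared by 6 sequences and lies near the end shown for that gene above, at chr8:86095348-86095377.

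Ndufb7, start other than U: Aaggagtttgaacgtgagcggcgactgctc

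The share of U rose with the number of sequences at an end. Of 2882 member ends with 1 listed sequence, 42.7% (40.9 to 44.5%) had U, of 832 with 2 sequences 52.4%, of 631 with 3 or 4 sequences 62.4%, and of 221 with 5 or more 76.9% (70.8 to 82.3%). At the same multiplicities the ends of other protein-coding genes had 56.1%, 73.3%, 83.7% and 91.5%. Each class of member ends was thus lower by 10 points or more. The classes were not split by place on the mRNA, in which members and other genes differed. Within coding sequence alone, 53.4% of member sequences started with U beside 59.8% for other genes. Neighbouring ends of 1 mRNA are not independent, and the intervals take no account of that. Members also had more ends with 5 or more sequences, 4.84% beside 1.72%.

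**Figure D4:**
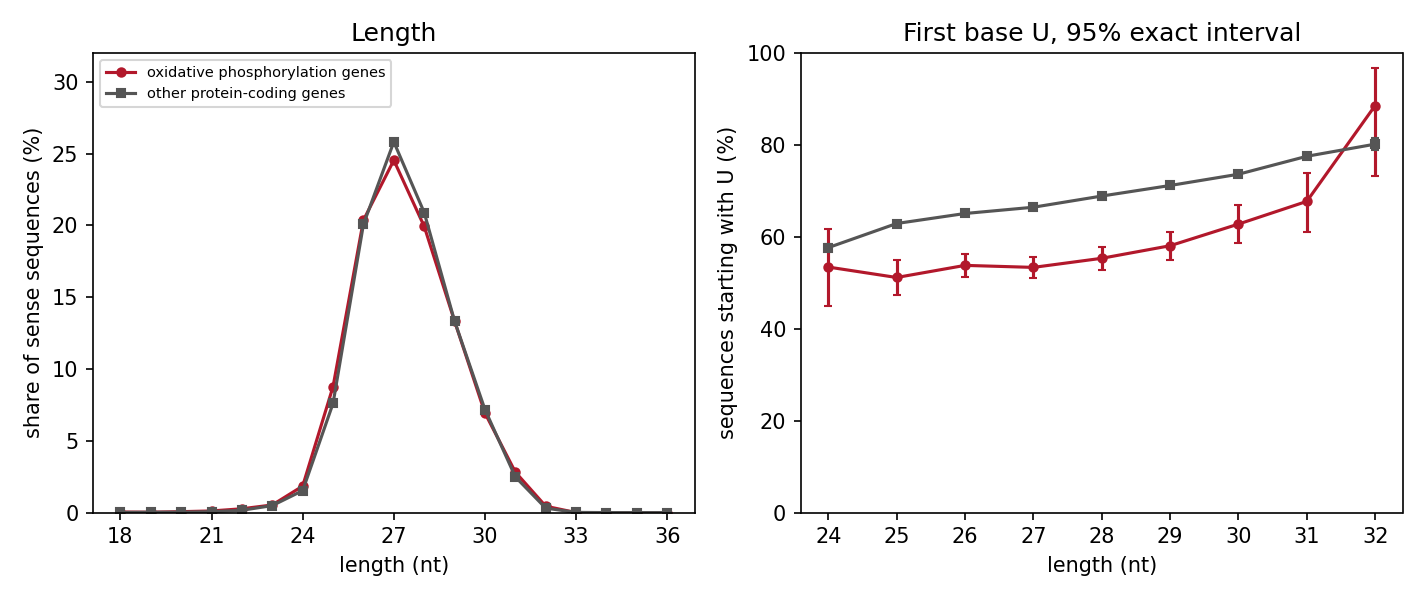
Left, share of sense sequences at each length in nt; right, percentage starting with U at each length from 24 to 32 nt, with 95% exact intervals, for oxidative phosphorylation genes (red circles) and other protein-coding genes (grey squares). The length curves lie on each other with the top at 27 nt, and the U share of members lies under that of other genes from 24 to 31 nt, 53.4% beside 66.4% at 27 nt, and above it at 32 nt, where there are 35 member sequences.

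Signs of the amplification cycle, in which a guide piRNA and its product overlap by 10 nt on opposite strands and the product has A at position 10, were looked for. A at position 10 was found in 29.7% (28.7 to 30.7%), next to 29.9% at position 9 and 29.6% at position 11. Sense and antisense 5′ ends of the members overlapped by 10 nt in 7 pairs of sequences, beside 3 pairs at 9 nt and 2 at 11 nt. Overlaps of 1 and 2 nt had more, 8 and 13 pairs, and those of 3 to 20 nt other than 10 had 0 to 6. The base after the 3′ end, which is not a sign of that cycle, was counted too. U followed the 3′ end in 24.1% (23.1 to 25.03%) of member sequences and stood 2 to 5 bases after it in 22.5 to 23.4%. For other protein-coding genes these shares were 25.9% and 24.6 to 25.2%.

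Antisense sequences were few. In all 110 matched 34 members (34.7%), close to the 30% of all protein-coding genes that had any. They made up 1.37% (1.13 to 1.65%) of sequences on either strand, beside 3.92% for other protein-coding genes. Atp5f1, the b subunit of the ATP synthase stalk, and Ndufs3, a core subunit of complex I, had 13 each, Sdhaf2 10, Ndufa7 9 and Atp5b 6. Of the 13 antisense to Atp5f1, 11 were sense to Wdr77, a coding gene that overlaps it in the opposite direction, and 4 of the 10 of Sdhaf2 were sense to Cpsf7. For Ndufs3 this held for 2 of 13, sense to Kbtbd4. Atp5g2, with no sense sequence, had 5 antisense ones.

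Many respiratory genes have processed copies elsewhere in the genome. Of the 7790 member sequences lying inside 1 exon, 0 also matched an annotated gene at another place, although 6.05% of the members' 26-nt windows do. Conversely, 381 listed sequences matched a member transcript exactly but were placed on another chromosome, and all 381 cross an exon junction of the member, where the spliced sequence has no continuous copy at its own gene. Of these, 290 match an annotated pseudogene of the chromosome they are listed on. They fall outside the counts above. Only 118 sequences counted for members cross a junction, 91 of them by 1 or 2 bases.

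An example comes from Ndufs6, an accessory subunit of complex I with 61 counted sequences on its own chromosome and 65 listed elsewhere. The sequence below matches 19 bases of exon 2 and 10 bases of exon 3 of its mRNA (in capitals) and is listed at chr7:88306458-88306486, where it matches the pseudogene Ndufs6b.

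Ndufs6, exon 2 to exon 3: tgtagatcgtcagaaagagGTGAATGAGA

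Such sequences numbered 53 for Cox5b, which had 29 counted on its own chromosome, 35 for Atp5o, 30 for Cox5a and 23 for Cox6a1, in 32 members in all. Whether they came from the mRNA or from the copy cannot be told apart.

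For most members few windows were shared. The median member shared 1.80% of the windows of its mRNA with a gene elsewhere and lost 15.1% to sharing or junctions together. In 31 members sharing reached 10% or more. The highest values belonged to genes at or near 0: Atp5g2 shared 87.8% and Atp5l 69.9%, leaving 86 and 156 windows inside 1 exon and found in no gene elsewhere. By contrast Cox4i2 and Cox8b, also at 0, shared 0.141% and 0%. Ndufa12 shared 60.3% and still had 79.5 sequences per kb of its mRNA. The median per kb of mRNA was 58.2 in the 44 members sharing under 1% and 87.7 in the 23 sharing 1 to under 10%. It was 71.0 in the 18 sharing 10 to under 30% and 32.5 in the 13 sharing 30% or more. Per 1000 windows inside 1 exon and found in no gene elsewhere the medians were 66.0, 110, 105 and 79.2, in the same order. Over the 98 members the rank correlation (Spearman) of sharing with sequences per kb was -0.00306. Copies outside annotated genes were not searched.

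**Figure D5:**
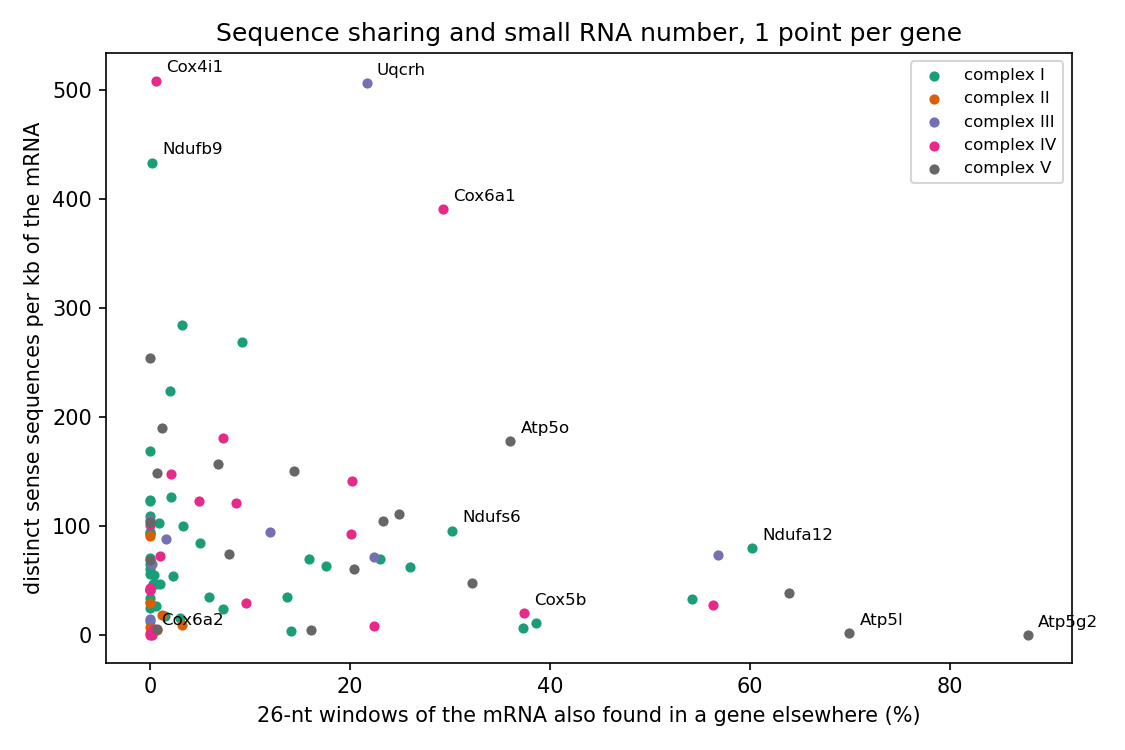
Distinct sense sequences per kb of the representative mRNA (vertical axis) against the percentage of its 26-nt windows that also occur in a gene elsewhere (horizontal axis), 1 point per member, coloured by complex. Atp5g2 and Atp5l lie at the lower right, with 87.8% and 69.9% shared and 0 and 1.84 per kb, whereas Cox6a2 lies near 0 on both axes.

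The genes that work with the members had sequences too. The respiratory chain assembly genes outside the name rule (34 genes) all had sense sequences, with a median of 17.8 per kb. This was near the 13.9 of the 14 assembly factors inside the rule and under the 43.3 of the 57 accessory subunits. It was also under the 41.4 of the 27 core entries, which include the readthrough entry of Atp5o. The 14 genes of the tricarboxylic acid cycle had a median of 11.5 per kb, and 14 regulators of mitochondrial biogenesis 10.4. The 13 subunits encoded by mitochondrial DNA are made inside the organelle. Together they had 68 sense and 15 antisense sequences, 7 of the 13 had any, and their median was 4.35 per kb. Nuclear copies of mitochondrial DNA were not searched.

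Markers of the cells in the tissue give the setting. Germ cell genes had medians of 64.7 (8 spermatogonial genes), 41.9 (8 meiotic genes) and 10.3 per kb (10 spermatid genes), with sense sequences in all 26. Sertoli cell genes had 2.25 (7 of 8 genes) and Leydig cell genes 0.374 (4 of 6). Rhox5 of the Sertoli list and Cyp17a1 and Hsd3b6 of the Leydig list were at 0. Ctsl and Cst12 of the Sertoli list stood at 15.1 and 12.2 per kb. Amh, Gata4, Sox9, Cldn11 and Wt1 of that list had 2.99, 2.56, 1.93, 1.07 and 0.323 per kb. Star and Insl3 of the Leydig list stood at 19.0 and 11.2 per kb, and Hsd3b1 and Cyp11a1 at 0.539 and 0.208. The part of somatic cells in the members' counts was not tested. The members' median of 39.7 lay between those of the germ cell lists. Most members are also expressed in somatic cells, and no cell of origin was assigned.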

How the data were processed

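Small RNAs from 3 immunoprecipitates of mouse testis were used, 1 library per group. The authors deposited 1 table with no read counts: a sequence, its chromosome and its position on NCBI mouse build 37 per the file headers, named mm9 in the submitters' processing notes. No aligner or rule for repeated positions is given in the sources used here.

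Each listed sequence was searched whole and exactly, on both strands, in GENCODE vM21 transcripts (seed 18 nt, tested on simulated data), with matches kept where the gene lies on the listed chromosome. Coordinates are those of the list. GENCODE describes another build and was used by sequence only. No sequence was printed from chromosome 18. A level is the number of distinct sense sequences divided by merged exon length in kb. Base shares use 24 to 32 nt. Shares carry 95% exact intervals. Planned library comparisons need a library for each sequence and were not computed. Python 3.11.15, numpy 2.4.6 and scipy 1.17.1 were used.

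Members and lists were chosen with earlier results of these data known. Genes named with values are the 3 with most sequences and the 3 densest per complex, the 5 with most antisense sequences, isoform pairs and genes at 0. Others were singled out after their values were seen. Values of some single members are not reported here.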

Additional observations from a re-analysis of the deposited data

Results flagged for a closer look

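Sequences that match a member transcript but are listed on another chromosome numbered 381. They lie outside the counts of the report, which is why they are given here. All of them cross an exon junction of the member, and 290 match an annotated pseudogene of the chromosome they are listed on. There are no control samples to set them against.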

How the results depend on the processing

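Of 34 alternative values 27 stayed within their tolerance (a factor of 1.5 for counts and medians, the 95% interval for shares) and 7 did not. These values describe 1 list and have no direction to change. The median density moved from 39.7 to 23.6 per kb with each 5′ end counted once, and to 87.9 per 1000 windows inside 1 exon and found in no gene elsewhere, a setting chosen after seeing the data. With each 5′ end counted once, the first-base U share was 48.8%, and the shares in the 5′ untranslated region, coding sequence and 3′ untranslated region were 9.02%, 68.8% and 22.2%. At 24 to 28 nt the U share was 53.7%. The number of members with a sense sequence was 93 to 95 under the planned settings. No paired analysis was possible because the list carries no library. Read depth is unknown, so a gene at 0 was not detected in this list and need not lack small RNAs.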
